A study of Mus musculus with 8 samples.

Results

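Endothelin-1 and adrenomedullin are short peptides that cells secrete to act on themselves and their neighbours. Endothelin-1 is cut from a longer precursor, first by furin-type convertases and then by the endothelin-converting enzyme, and signals through the receptors encoded by Ednra and Ednrb. The kidney collecting duct is known as a site of endothelin-1 synthesis, where the peptide restrains sodium and water reabsorption. Adrenomedullin is amidated after cleavage and signals through the receptor encoded by Calcrl, which needs a receptor activity-modifying protein (RAMP) as partner. Its gene, Adm, is a textbook target of the hypoxia-inducible transcription factors.

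The genes described here are the endothelin and adrenomedullin genes Edn1, Ece1, Ednra, Adm and Calcrl. They were chosen by symbol, and 5 of the 6 symbols looked for had a row among the 15288 genes of the count table. Ednrb had none and was not analysed here. All 5 passed the expression filter and were tested among 14024 genes. The cells were IMCD, a mouse line from the inner medullary collecting duct, grown in DMEM with serum and then moved for 12 h to DMEM without serum. Of the 8 bulk RNA libraries, the 4 control libraries had no added NaCl and the 4 NaCl libraries had 100 mmol NaCl, an amount the labels give without a volume. The library numbers in the labels are 1 to 4 for control and 5 to 8 for NaCl. No label says what the number stands for or whether the libraries came from separate cultures, so p-values measure the spread between these libraries, which may be technical.

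Totals per library were between 35286796 and 47565623 counts. Control replicate 1 was the deepest library and NaCl replicate 5 the shallowest. Of 19 collecting duct markers 18 had a row, and their summed level was 979 to 1215 CPM (counts scaled to library size) in control and 1156 to 1285 CPM in NaCl libraries. Pax2, Pax8, Krt7, Krt8, Krt18 and Tfcp2l1 had 3257 to 16165 counts per library. The water channel gene Aqp2 had at most 15 counts and the adherens junction gene Cdh1 at most 30 counts in any library. Low counts were also found for Aqp3 (at most 28), Aqp4 (at most 21), Scnn1b (at most 14) and Hsd11b2 (at most 57). Elf5 had no row. Of the 15 collecting duct markers tested 5 rose and 3 fell (53.3% called, against 34.1% of all tested genes). Among them the vasopressin receptor gene Avpr2 (log2 change 2.60; edgeR adjusted p = 0.00685; 0 to 48 counts) and Cdh1 (1.43; 0.0254) rose. The sodium channel gene Scnn1g (-0.84; 3.74e-04) and Gata3 (-0.44; 0.00341) fell. Pax2 (1.23; 1.57e-10), Slc14a2 (1.13; 1.02e-04) and Pax8 (0.54; 1.45e-06) also rose, and Tfcp2l1 (-0.38; 3.47e-04) also fell. The Cdh1 call was lost without control replicate 1 or 3 or NaCl replicate 5 or 6. With a linear drift over library numbers 1 to 8 fitted, Avpr2 was at 1.31 (0.494), Cdh1 at 2.15 (0.10) and Gata3 at -0.37 (0.223), none called. Pax8 (0.28; 6.35e-04) and Tfcp2l1 (-0.60; 9.68e-06) stayed called in that fit. Of 12 endothelial markers 7 had a row, with a sum of 49.6 to 61.8 CPM in control and 37.7 to 56.4 CPM in NaCl libraries, most of it Flt1. Pecam1, Kdr, Tek, Tie1 and Sox17 had no row. Of 10 fibroblast and smooth muscle markers 9 had a row, with a sum of 3221 to 3734 CPM in control and 2924 to 3358 CPM in NaCl libraries, most of it Col1a1. Of these, Pdgfrb (log2 change 0.70; edgeR adjusted p = 1.08e-06) and Acta2 (0.28; 2.37e-04) rose, and Col1a1 (-0.21; 0.00808) and Pdgfra (-0.67; 0.0332) fell. The Pdgfra call was lost without control replicate 1 or 3 or NaCl replicate 6 or 7 and with the drift (0.452), and the Col1a1 call was lost with the drift (0.437) and with the number centred within its group (0.0666). Of 8 immune cell markers 4 had a row, with a sum of 12.97 to 18.2 CPM in control and 21.4 to 26.3 CPM in NaCl. Ptprc carried that difference and rose (log2 change 1.73; edgeR adjusted p = 5.91e-10), whereas Cd68 had -0.51 (0.0573) and Csf1r -0.05 (0.874). In bulk samples fewer cells of a type and less RNA per cell cannot be told apart.

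The stretch before the start of Adm is shown first, because the values below turn on Adm and on the genes whose levels moved most like it. These were Ero1a, Ndrg1 and Bnip3, chosen by profile as described further on. Sequences are from RefSeq on GRCm38.p6, 5′ to 3′ in the direction of the gene, and cover the 250 bases before the annotated start. Capitals mark ACGTG or GCGTG on either strand, the core of the motif bound by hypoxia-inducible factors. Adm lies at chr7:110627407-110627656 (+), Ero1a at chr14:45318573-45318822 (-), Bnip3 at chr7:138909507-138909756 (-) and Edn1 at chr13:42301226-42301475 (+). Ndrg1 was not printed.
Adm: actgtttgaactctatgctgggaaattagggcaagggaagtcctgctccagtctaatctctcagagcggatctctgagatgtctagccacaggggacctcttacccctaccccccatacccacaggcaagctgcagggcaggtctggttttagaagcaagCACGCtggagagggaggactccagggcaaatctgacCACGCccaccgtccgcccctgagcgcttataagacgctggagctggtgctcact
Ero1a: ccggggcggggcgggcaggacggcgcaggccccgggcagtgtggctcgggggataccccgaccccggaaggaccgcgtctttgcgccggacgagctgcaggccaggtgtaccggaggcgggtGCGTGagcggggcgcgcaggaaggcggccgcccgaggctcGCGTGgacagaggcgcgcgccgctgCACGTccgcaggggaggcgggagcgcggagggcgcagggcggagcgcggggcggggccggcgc
Bnip3: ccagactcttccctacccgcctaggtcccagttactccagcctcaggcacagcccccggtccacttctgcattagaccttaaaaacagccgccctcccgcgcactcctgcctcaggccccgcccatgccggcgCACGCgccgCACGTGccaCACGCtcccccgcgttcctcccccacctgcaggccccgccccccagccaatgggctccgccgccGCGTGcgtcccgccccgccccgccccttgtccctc
Edn1: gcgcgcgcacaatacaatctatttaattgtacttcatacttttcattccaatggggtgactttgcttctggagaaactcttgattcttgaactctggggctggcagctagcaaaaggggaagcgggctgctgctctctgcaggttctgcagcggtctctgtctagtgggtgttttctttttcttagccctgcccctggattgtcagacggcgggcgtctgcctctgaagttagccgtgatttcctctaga

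The Adm window held 2 matches, both to GCGTG, the Ero1a window 3 and the Bnip3 window 5, of which 2 overlap each other on opposite strands. The Edn1 window held none. Ece1, which had no called slope, has 4 annotated start windows in the table, and 3 of them held a match, 1 with 4 matches and the other two, which overlap, with the same single match. The single windows of Ednra and Calcrl held none. At least 1 match was present in 38.6% of the 32851 promoter windows of the same length, so a match is common and describes the letters only. Other motifs searched on both strands had no match in the Adm or Edn1 window. The AP-1 motif TGANTCA was present in 6.75% of all windows. The GATA-factor motif AGATAA was present in 9.99%, the NFAT5 core TGGAAA in 18.6% and the steroid receptor element AGAACA in 16.1% of them.

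The levels of the members were compared per length, as CPM per kilobase of exon. Ece1, which encodes the converting enzyme, was highest, at 34.1 ± 1.72 CPM per kilobase (SD over 4 control libraries) and 31.0 ± 1.33 (SD over 4 NaCl libraries). Adm followed at 11.9 ± 3.01 and 9.74 ± 4.03 CPM per kilobase, and Edn1 at 3.28 ± 0.443 and 3.23 ± 0.346. The lowest Adm library, at 4.88 CPM per kilobase, lay above the highest Edn1 library, at 3.76. Both receptor genes were far lower, with Calcrl at 0.195 ± 0.0729 and 0.301 ± 0.0765 and Ednra at 0.184 ± 0.0399 and 0.146 ± 0.0659 CPM per kilobase. Their library ranges overlapped in control, where Calcrl spanned 0.109 to 0.283 and Ednra 0.132 to 0.225. In NaCl they did not, with Calcrl from 0.247 to 0.410 and Ednra from 0.062 to 0.207. With the longest transcript as the length in place of all exons, the means over 8 libraries were 0.248 for Calcrl and 0.249 for Ednra, so their order depended on the length used.

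The comparison of NaCl with control asked whether hypertonic medium changed these genes. Of the 5 members, Ece1 fell, and Edn1, Adm, Ednra and Calcrl did not pass the test. That is 1 of 5 members, where 34.1% of all tested genes were called, 16.9% higher and 17.2% lower. Over the members the median log2 change was -0.14, against 0.00287 over all tested genes.

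**Figure D1:**
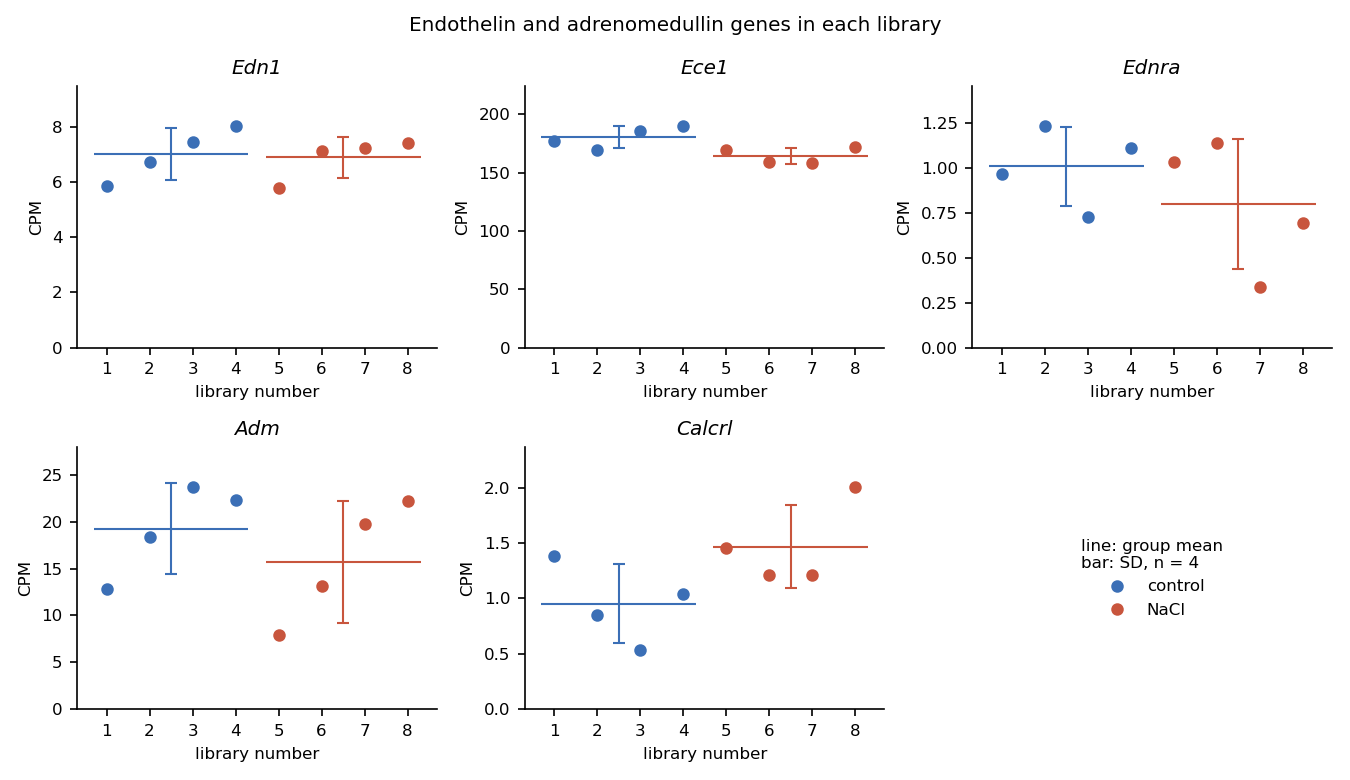
CPM (vertical axis, from 0) of the 5 members in each library (horizontal axis, library number), with control in blue and NaCl in red; lines are group means and bars the SD of 4 libraries. The lowest Adm and the lowest Edn1 value of each group are in its first library, and the groups overlap for all 5 genes.

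Edn1 (ENSMUSG00000021367; GRCm38 chr13:42301476-42307990, + strand) encodes the endothelin-1 precursor. The control libraries held 279, 284, 309 and 340 counts and the NaCl libraries 208, 302, 299 and 311, in the order of their numbers. As CPM the control values were 5.85, 6.73, 7.47 and 8.04 and the NaCl values 5.80, 7.14, 7.25 and 7.41. The NaCl values lay almost wholly inside the control range. The log2 change was -0.02 (SE 0.12; edgeR adjusted p = 0.914), with a 95% interval from -0.27 to 0.23 that leaves room for a change of that size in either direction. The gene Gm47118 on the opposite strand overlaps 1.64% of the Edn1 exons, and whether counting used strand is not given in the sources used here.

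Ece1 (ENSMUSG00000057530; chr4:137862237-137965229, + strand) encodes the membrane protease that releases endothelin-1 from its precursor. It was at 177, 170, 186 and 190 CPM in control and at 169, 159, 158 and 172 CPM in NaCl libraries. The highest NaCl library lay above the lowest control library, so the groups overlapped. The mean fell from 181 ± 9.11 to 164 ± 7.07 CPM (SD over 4 libraries), a log2 change of -0.14 (SE 0.042; edgeR adjusted p = 0.0183). The median absolute change among all called genes was 0.28. The call was lost without control replicate 3 (adjusted p = 0.0548), control replicate 4 (0.0533), NaCl replicate 6 (0.0664) or NaCl replicate 7 (0.068).

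Ednra (ENSMUSG00000031616; chr8:77663031-77724464, - strand) encodes the type A endothelin receptor. The control libraries held 46, 52, 30 and 47 counts and the NaCl libraries 37, 48, 14 and 29. In CPM these were 0.964, 1.23, 0.725 and 1.11 against 1.03, 1.14, 0.339 and 0.691. NaCl replicates 7 and 8 lay below every control library and the other NaCl libraries inside the control range. The log2 change was -0.34 (SE 0.34; edgeR adjusted p = 0.479; 95% interval from -1.06 to 0.38).

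Adm (ENSMUSG00000030790; chr7:110627661-110629820, + strand) encodes the adrenomedullin precursor. The control libraries held 611, 774, 980 and 944 counts and the NaCl libraries 283, 554, 816 and 935. As CPM the control values were 12.8, 18.4, 23.7 and 22.3 and the NaCl values 7.90, 13.1, 19.8 and 22.3, in the order of the library numbers. The first library of each group was its lowest, and NaCl replicate 8 was level with control replicate 4. The log2 change was -0.28 (SE 0.36; edgeR adjusted p = 0.608; 95% interval from -1.15 to 0.59). Without NaCl replicate 5 it was -0.07 and without NaCl replicate 8 it was -0.50, neither called.

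Calcrl (ENSMUSG00000059588; chr2:84330626-84425411, - strand) encodes the calcitonin receptor-like receptor, which binds adrenomedullin or calcitonin gene-related peptide according to its RAMP partner. The control libraries held 66, 36, 22 and 44 counts and the NaCl libraries 52, 51, 50 and 84. Control replicate 1 lay inside the NaCl range and the other controls below it. The log2 change was 0.61 (SE 0.29; edgeR adjusted p = 0.117), with a 95% interval from -0.00242 to 1.23. Without control replicate 1 it was 0.85 and passed (adjusted p = 0.0447).

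The other genes of the pathway were examined from a list of 19 ligands, processing enzymes, receptors and receptor partners, of which 13 had a row and were tested. Of these, Ramp3 and Furin rose, Ramp2, Pcsk6, Mme and Crcp fell, and 7 did not pass. The share called was 46.2% of 13, against 34.1% of all tested genes, and the median log2 change was -0.18. Edn2, Edn3, Pcsk5, Calca, Calcb and Gpr182 had no row.

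**Figure D2:**
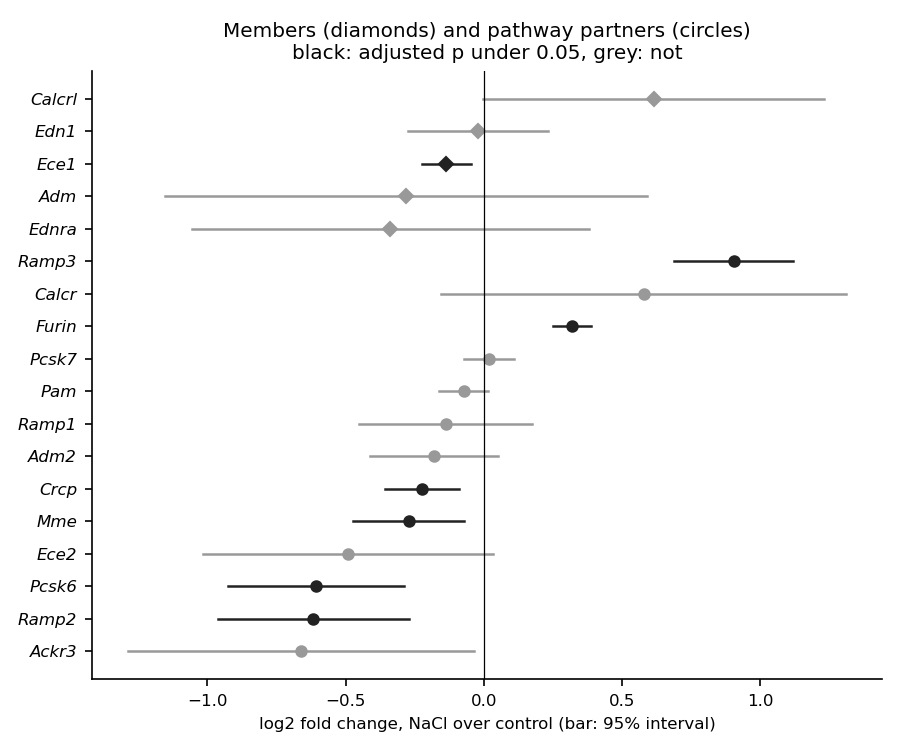
Log2 fold change of NaCl over control (horizontal axis) with its 95% interval for the 5 members (diamonds) and 13 pathway partners (circles); black marks an adjusted p under 0.05. Ramp3 at 0.90 and Ramp2 at -0.62 lie on opposite sides of 0, and the intervals of Adm and Ednra are among the widest.

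The RAMP genes moved in opposite directions. RAMP2 and RAMP3 each turn the Calcrl product into an adrenomedullin receptor, and RAMP1 turns it into a receptor for calcitonin gene-related peptide. Ramp3 was at 7.69, 6.57, 5.61 and 7.21 CPM in control and at 13.8, 12.0, 12.1 and 12.8 CPM in NaCl libraries. Every NaCl library lay above every control library, and Ramp3 rose by 0.90 on the log2 scale (SE 0.10; edgeR adjusted p = 3.65e-06). Ramp2 was at 3.65, 3.60, 4.13 and 4.37 CPM in control and at 2.96, 2.65, 1.84 and 2.83 CPM in NaCl libraries. Every NaCl library lay below every control library, and the log2 change was -0.62 (SE 0.16; adjusted p = 0.00746). Ramp1 was between 3.44 and 5.70 CPM in control and between 3.83 and 4.41 CPM in NaCl libraries, and had a log2 change of -0.14 (adjusted p = 0.513), which was -0.25 without control replicate 2 and -0.0081 without control replicate 3. Groups that did not overlap were found for 33.4% of all tested genes.

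**Figure D3:**
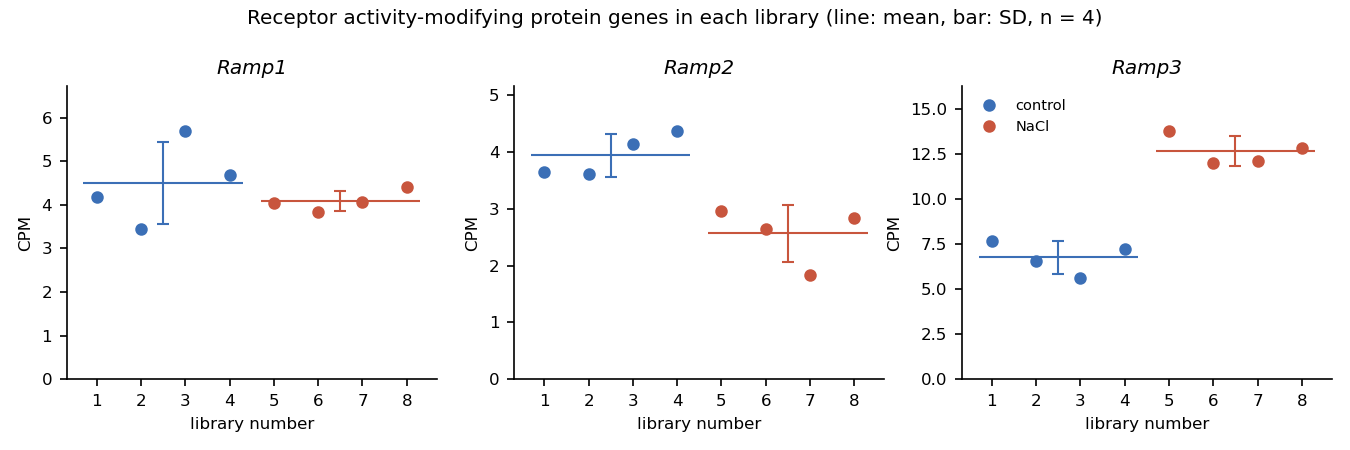
CPM (vertical axis, from 0) of Ramp1, Ramp2 and Ramp3 in each library (horizontal axis, library number), control in blue and NaCl in red, with group means as lines and the SD of 4 libraries as bars. The NaCl libraries lie above control for Ramp3 and below control for Ramp2, and the groups overlap for Ramp1.

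The ratio of Ramp3 to Ramp2 counts was then taken within each library, which removes the scaling. This measure was chosen after the values of both genes had been seen, so its test adds no independent evidence. The ratio was 2.11, 1.82, 1.36 and 1.65 in control and 4.67, 4.53, 6.59 and 4.53 in NaCl libraries. It was 2.93 times higher in NaCl, as a ratio of geometric means, and no libraries overlapped (exact two-sided permutation p = 0.0286, the smallest that 4 against 4 libraries can give). The Ramp2 counts are uncertain, because its exons overlap those of Vps25 on the same strand over 33.4% of their length and 74.6% of its longest transcript is shared with Vps25. Vps25 itself had 2 to 12 counts per library. Gm11978 on the opposite strand overlaps 7.32% of the Ramp3 exons.

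Of the other precursor processing genes, Furin rose, Pcsk6 fell, and Pcsk7, Pam and Ece2 did not pass. Furin, which encodes the convertase known for cutting many secreted precursors, was at 137, 140, 143 and 144 CPM in control and at 173, 172, 179 and 178 CPM in NaCl libraries. The groups were separate by more than their spread, and Furin rose by 0.32 on the log2 scale (SE 0.033; edgeR adjusted p = 1.40e-06). Pcsk6, a related convertase gene, fell from 4.42 ± 0.478 to 2.89 ± 0.516 CPM (SD, n = 4 each; log2 change -0.61; adjusted p = 0.00496), while Pcsk7 had a log2 change of 0.02 (adjusted p = 0.785). Pam, which encodes the enzyme that amidates adrenomedullin, was at 96.3 ± 4.68 and 91.5 ± 2.76 CPM (log2 change -0.07; adjusted p = 0.185). Mme, which encodes neprilysin, a protease that degrades both peptides, fell from 242 ± 29.9 to 201 ± 12.2 CPM, with a log2 change of -0.27 (SE 0.088; adjusted p = 0.0429). That call was lost without any of control replicates 2, 3 or 4 or of NaCl replicates 5, 6 or 7 (adjusted p up to 0.0974). It was also lost in limma-voom with all libraries (adjusted p = 0.0515).

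Of the remaining partners, Crcp was called and Adm2, Ackr3, Ece2 and Calcr were not. Crcp, which encodes a component of calcitonin gene-related peptide receptor signalling that is also an RNA polymerase III subunit, fell from 43.6 ± 4.47 to 37.3 ± 0.903 CPM (SD, n = 4 each; log2 change -0.22; edgeR adjusted p = 0.011). It was no longer called when a linear drift over library numbers 1 to 8 was fitted (adjusted p = 0.728), and its change shrank to -0.07. Under the same drift Ramp2 missed the threshold (0.106) with a larger change of -0.71, and Pam passed at -0.22 (0.0215). Adm2, which encodes the related peptide intermedin, was at 9.19 ± 0.375 and 8.10 ± 1.29 CPM (log2 change -0.18; adjusted p = 0.22). Ackr3, which encodes a scavenging receptor that takes up adrenomedullin, was at 5.37 ± 0.605 and 3.36 ± 1.42 CPM, with no overlap between the groups, a log2 change of -0.66 and an adjusted p of 0.0986. Without NaCl replicate 5, its lowest library, the change was -0.41 and passed (adjusted p = 0.0375), and without NaCl replicate 8 it was -0.85 and passed (0.0437). Ackr3 also passed with the library number in the fit, centred (-0.71; 0.00155) or as a drift (-1.80; 7.10e-04). Ece2 (log2 change -0.49; adjusted p = 0.139) shares 65.8% of its transcript with Gm49333. Calcr had 13 to 31 counts per library (log2 change 0.58; adjusted p = 0.217).

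Genes that carry the signal of these receptors inside the cell were mixed in direction. All 29 genes of the G protein list were tested, 7 rose and 7 fell (48.3% called, against 34.1% of all tested genes), and the median log2 change was -0.02. Rgs2, which encodes an inhibitor of Gq signalling, rose from 0.535 ± 0.178 to 1.15 ± 0.447 CPM (SD, n = 4 each; log2 change 1.11; edgeR adjusted p = 0.0206), and Grk5, which encodes a receptor kinase, rose by 0.58 (adjusted p = 1.98e-06). The Rgs2 call was lost without control replicate 1 or 2 or NaCl replicate 7 or 8, with adjusted p-values from 0.0525 to 0.0766, and a linear drift over the numbers reversed its direction, at -0.12. Adcy3, which encodes an adenylyl cyclase, had a log2 change of -0.79 (adjusted p = 1.89e-05), and Plcb1, which encodes a phospholipase C, had -0.40 (adjusted p = 0.0187). Plcb1 was not called without control replicate 3 (0.0597) or NaCl replicate 7 (0.061) or with a linear drift (0.34). Gnaq, which encodes the Gq subunit, had -0.02 (adjusted p = 0.667) and Gnas, which encodes the Gs subunit, 0.06 (adjusted p = 0.145).

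Other vasoactive peptide and nitric oxide genes had larger changes than the members. Of 26 genes 14 had a row and 11 were tested, with 1 higher and 4 lower (45.5% called, against 34.1% of all tested genes). Npr1, which encodes the receptor for atrial natriuretic peptide, rose from 7.14 ± 0.697 to 26.1 ± 2.79 CPM (SD, n = 4 each; log2 change 1.87; edgeR adjusted p = 2.29e-10). Agtr2, which encodes the type 2 angiotensin receptor, was at 3.70 to 4.34 CPM in control and at 1.33 to 2.50 CPM in NaCl libraries and fell (log2 change -1.14; adjusted p = 1.62e-04). Kng1, which encodes kininogen, had a log2 change of -1.70 (adjusted p = 1.02e-06). Of the nitric oxide synthase genes, Nos1 and Nos3 were below the filter and Nos2 had at most 17 counts.

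The course along the library number inside each group was tested next, with 1 slope shared by both groups and the number centred within its group. Adm had the steepest slope of the members, at 0.38 log2 units per library number (SE 0.065; edgeR adjusted p = 0.00606), and was the only member called, 1 of 5. Of all 14024 genes 13.2% were called, 6.95% with a positive and 6.22% with a negative slope. Adm rose at each library number in the NaCl group, as did 7.72% of genes. Among the genes called with a positive slope 23 exceeded Adm. Adm was 2.82 times higher in NaCl replicate 8 than in replicate 5, and 1.74 times higher in control replicate 4 than in replicate 1. The Adm slope stayed positive without each library in turn, between 0.30 and 0.48, and missed the threshold without control replicate 1 (0.38; adjusted p = 0.0644). Without both control replicate 1 and NaCl replicate 5, chosen after the data had been seen, it was 0.25 (adjusted p = 0.0059).

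With a slope for each group, added after the data had been seen, Adm had 0.27 (SE 0.059) in control and 0.49 (SE 0.063) in NaCl libraries. Both passed edgeR's test (adjusted p = 0.00528 and 4.32e-05), where 9.36% and 4.07% of all genes did. The difference of the slopes was 0.22 (SE 0.087) and did not pass, as for all but 0.0927% of genes (edgeR adjusted p = 0.523; 95% interval from 0.037 to 0.40 before adjustment). Control replicate 1 had the lowest control Adm and the highest total count, whereas NaCl replicate 5 had the lowest Adm and the lowest total count. The part of depth in the slope was not tested. Leaving out 1 library at a time, the difference of slopes ranged from 0.051 without control replicate 4 to 0.38 without NaCl replicate 8, and it was 0.10 without NaCl replicate 5 and 0.35 without control replicate 1, none called.

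Edn1 had a slope of 0.13 (SE 0.046) that did not pass (edgeR adjusted p = 0.056), and passed in DESeq2 (0.0431) and without NaCl replicate 6 (0.0466). Its CPM was higher at each next library number in both groups, as for 2.15% of tested genes. The Ece1 slope was 0.03 (SE 0.015; adjusted p = 0.28), and without NaCl replicate 5 it was 0.05 and passed (0.027). Ednra had -0.16 (SE 0.14; adjusted p = 0.556) and Calcrl -0.01 (SE 0.12; adjusted p = 0.978), with intervals from -0.45 to 0.14 and from -0.25 to 0.23. Of the 13 partners, Ackr3 (0.27; adjusted p = 0.021) and Mme (0.09; adjusted p = 0.00271) rose along the number and none fell, which is 15.4% called, against 13.2% of all genes. Of 4 endothelial markers tested, Flt1 rose along it (0.15; edgeR adjusted p = 6.95e-05), and Erg (0.35; 0.39), Egfl7 (-0.02; 0.929) and Cdh5 (-0.12; 0.768) were not called. Of the 15 collecting duct markers tested 5 rose along the number (33.3% called, against 13.2% of all genes), namely Krt7 (0.10; 3.93e-07), Krt18 (0.11; 5.35e-07), Krt8 (0.10; 0.00303), Pax8 (0.06; 0.00107) and Tfcp2l1 (0.06; 0.0456). The immune marker Csf1r rose (0.23; 0.00186) and the fibroblast marker Pdgfrb fell (-0.06; 0.0404). The part of these markers in the Adm and Edn1 slopes was not tested.

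Because controls hold numbers 1 to 4 and NaCl libraries 5 to 8, a drift over the whole series and the group cannot be told apart. With the number as a linear drift from 1 to 8 in the fit, the log2 change of Adm was -1.84 (edgeR adjusted p = 0.00234), that of Edn1 -0.54 (0.0582) and that of Ece1 -0.24 (0.00838), where 24.1% of all genes were called. With the number centred within its group, Adm was at -0.33 (0.0898), Edn1 at -0.02 (0.893) and Ece1 at -0.14 (0.0012), where 43% were called.

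**Figure D4:**
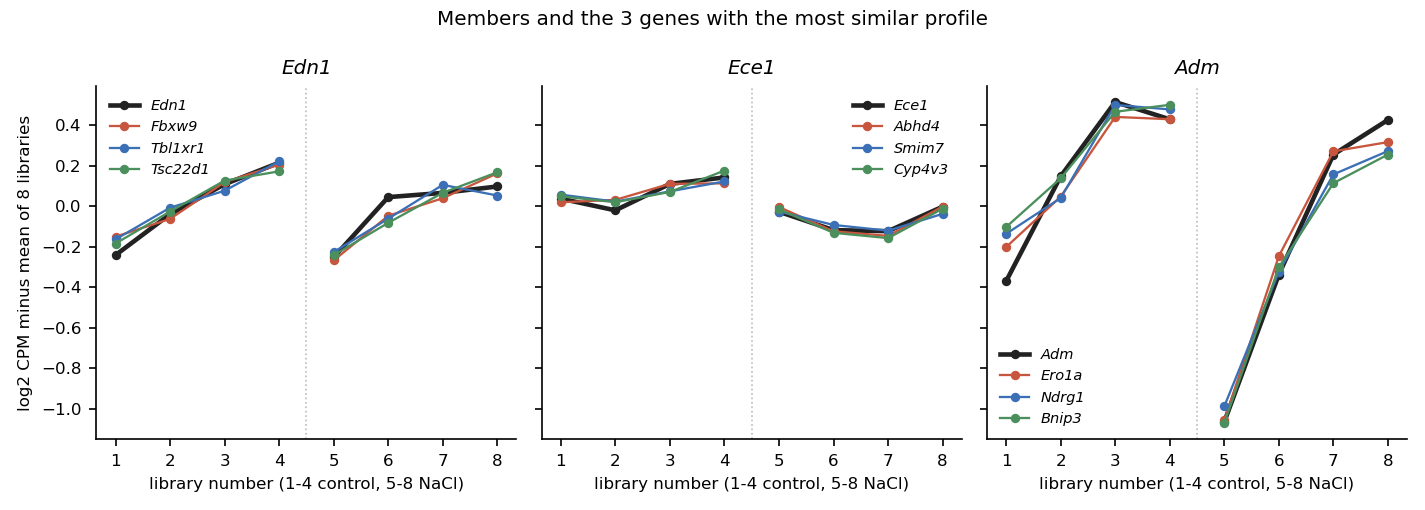
Log2 CPM minus the mean of the 8 libraries (vertical axis) along the library number (horizontal axis; 1 to 4 control, 5 to 8 NaCl) for Edn1, Ece1 and Adm in black and the 3 genes nearest to each in colour. Adm and its neighbours are lowest in NaCl replicate 5 and high in control replicates 3 and 4.

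Genes with the most similar profile were found by the root mean square difference of centred log2 CPM over the 8 libraries, leaving out genes whose log2 CPM averaged under 3. Nearest to Adm were Ero1a (0.09), Ndrg1 (0.12) and Bnip3 (0.13), where the median gene was at 0.52. All 3 are textbook hypoxia-inducible genes, encoding an oxidase of the endoplasmic reticulum, a stress-induced protein and a mitophagy receptor. Ero1a was at 270, 321, 422 and 419 CPM in control and at 149, 262, 375 and 387 CPM in NaCl libraries, with the same highest and lowest libraries as Adm. Bnip3 was at 274, 324, 406 and 416 CPM and at 140, 239, 318 and 351 CPM. Their slopes were 0.34 for Ero1a, 0.32 for Ndrg1 and 0.32 for Bnip3. Their log2 changes between the groups were -0.29, -0.39 and -0.44, in the same order. With the linear drift in the fit, those changes were -1.70, -1.73 and -1.76. These neighbours, like those of Edn1 and Ece1, were picked for their profile over the same libraries, so their slopes and changes are a description with no test.

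Nearest to Edn1 were Fbxw9 (0.053), Tbl1xr1 (0.054) and Tsc22d1 (0.058), where the median gene was at 0.19. These encode an F-box protein, a transcriptional corepressor subunit and a transcriptional regulator. Tsc22d1 was at 587, 655, 728 and 751 CPM in control and at 564, 630, 698 and 749 CPM in NaCl libraries. The 3 had slopes from 0.11 to 0.13 and log2 changes between the groups from -0.06 to -0.04. With the linear drift in the fit, the changes were -0.58 for Fbxw9, -0.51 for Tbl1xr1 and -0.56 for Tsc22d1. Nearest to Ece1 were Abhd4 (0.025), Smim7 (0.027) and Cyp4v3 (0.028), where the median gene was at 0.13. Abhd4 and Smim7 had log2 changes of -0.14 each, and Cyp4v3 had -0.16.

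A list of 24 hypoxia-inducible genes was added after the Adm values had been seen, so it is a description and no independent support. It holds Ero1a, Ndrg1 and Bnip3. Aldoa, also on the list, was not tested because its symbol stands on more than 1 row. Its counts were not low, at 56704 to 106400 per library in the first of its rows. Of the 23 tested, 14 rose along the library number (60.9%, against 13.2% of all genes called), and all 23 had a positive slope, from 0.01 to 0.34. The median slope was 0.20, against -0.00144 over all genes. The difference of slopes between the groups was positive, steeper in NaCl, for 22 of the 23 genes, and 4 were called (17.4%, against 0.0927% of all genes). These were Hk2, which encodes a hexokinase (0.17; edgeR adjusted p = 0.00291), P4ha1 (0.15; 0.0115), Bhlhe40, which encodes a transcriptional repressor (0.14; 0.0125), and Higd1a, which encodes a mitochondrial protein (0.19; 0.0364). For P4ha1 the slope was 0.015 in control and 0.16 in NaCl, so the shared slope hides that difference. None of the 4 was called when NaCl replicate 5 or either of control replicates 1 and 4 was left out. Without NaCl replicate 6, 7 genes of the list were called, among 24 of all genes. Without NaCl replicate 8 it was 13, among 110 of all genes. Pgk1 and Ldha, which encode glycolytic enzymes, had slopes of 0.25 (edgeR adjusted p = 0.0217) and 0.20 (0.024), and Vegfa, which encodes an angiogenic growth factor, had 0.15 (0.0895). The number called along the shared slope was 7 without control replicate 1, 7 without control replicate 2, 6 without control replicate 3, 8 without NaCl replicate 6 and 5 without NaCl replicate 8. Without both control replicate 1 and NaCl replicate 5 it was 16. Over all genes the number called along this slope was 1847 with all libraries. It was 949 without control replicate 1, 1596 without control replicate 2 and 1557 without control replicate 3. It was 1670 without NaCl replicate 6, 1042 without NaCl replicate 8 and 735 without both control replicate 1 and NaCl replicate 5.

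**Figure D5:**
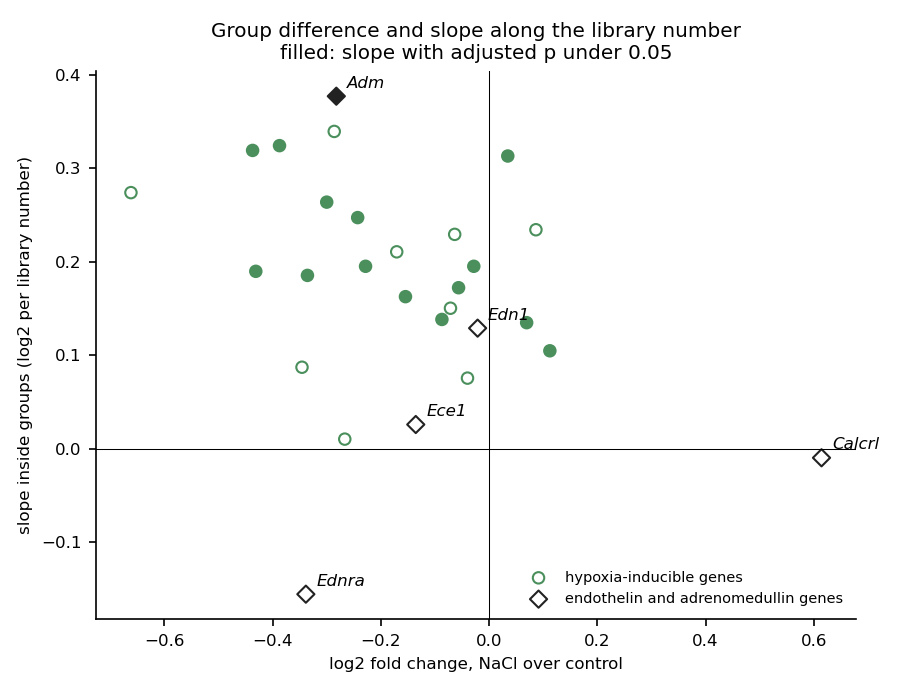
Slope inside groups in log2 per library number (vertical axis) against the log2 change of NaCl over control (horizontal axis) for the 5 members (diamonds) and 23 hypoxia-inducible genes (circles); filled symbols have a slope with an adjusted p under 0.05. Adm has the highest slope shown, at 0.38, and all hypoxia-inducible genes have positive slopes.

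The same list was then compared between the groups. The share called was 8.7%, against 34.1% of all tested genes (16.9% higher and 17.2% lower), and the median log2 change was -0.17. None of the 23 genes passed as higher with NaCl, and P4ha1, which encodes a collagen prolyl hydroxylase subunit (log2 change -0.35; edgeR adjusted p = 0.0325), and Pfkfb4, which encodes a regulator of glycolysis (-0.27; 0.0405), fell. Both calls were lost without control replicate 1, 2 or 3 or NaCl replicate 6, that of P4ha1 also without control replicate 4, and that of Pfkfb4 also without NaCl replicate 5 or 8 and with a linear drift. With the linear drift all 23 changes were negative, from -1.81 to -0.31. All but Vegfa, Slc2a1, Egln1, Ddit4, Pfkfb3 and Pfkfb4 were called lower, where 24.1% of all genes were called. With the number centred within its group, Bnip3, Car9, P4ha1, Bhlhe40, Kdm3a, Pfkfb4 and Hk2 were called lower. Mxi1 was called higher in that fit (0.11; edgeR adjusted p = 0.0112), where 43% of all genes were called. Of 15 known regulators of Edn1 or Adm 5 rose and 2 fell (46.7% called, against the same 34.1%). Hif1a, which encodes the hypoxia-inducible factor subunit, rose from 265 ± 7.24 to 435 ± 17.9 CPM (SD, n = 4 each; log2 change 0.72; adjusted p = 2.54e-10), with a slope along the number of -0.02 (adjusted p = 0.29). Nfat5, which encodes the tonicity-responsive factor, rose by 0.28 (edgeR adjusted p = 3.96e-05). Smad4, which encodes a mediator of TGF-beta signalling, had -0.12 (0.0199), a call lost without control replicate 4 or NaCl replicate 5 or 6. Jun, which encodes an AP-1 subunit, had a log2 change of -0.26 (adjusted p = 9.50e-04) and a slope of 0.06 (0.0174). Epas1 and Arnt, which encode the other subunits of these factors, had log2 changes of -0.01 and 0.02 (adjusted p = 0.93 and 0.731).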

How the data were processed

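Bulk RNA was sequenced from 4 control and 4 NaCl libraries. The authors deposited raw counts per Ensembl gene, which were the input here, and a normalized signal equal to the count divided by 1 factor per library, used for an alternative only. Per the submitters' processing notes the build was mm10 and the tools included Trim Galore 0.6.7, STAR and DESeq2 1.34.0. The counting program and its strand setting are not given in the sources used here. No gene in the deposited table had fewer than 19 counts in total.

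Counts were tested in R 4.3.3 with edgeR 4.0.16 (filterByExpr at a minimum count of 10, TMM factors, robust quasi-likelihood fit, Benjamini-Hochberg adjustment over 14024 genes, threshold 0.05). The filter removed 1264 genes with 0.0191% of counts. Standard errors are the log2 change divided by the square root of F. CPM used TMM-scaled totals, and log2 CPM a prior count of 2. The scripts were tested on simulated data. There 7.82% of the calls between groups and 10% of the slope calls were false. Log2 changes of 0.3 were recovered in 64.1% and of 2 in 98% of the changed genes. Slopes of 0.1 were recovered in 40% and of 0.4 in 81%. Exon lengths, overlaps and shared sequence came from GENCODE M21 on GRCm38, the latter with blastn 2.17.0 (alignments of at least 75 bases at 98% identity). Promoters were matched by symbol in the RefSeq table.

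Named genes are all members and listed partners, the called genes at either extreme of fold change in each other list (2 per direction), and the 3 nearest profiles of Edn1, Ece1 and Adm. Gnaq, Gnas, Hk2, Bhlhe40, Higd1a, Pgk1, Ldha, Vegfa, Slc2a1, Egln1, Ddit4, Pfkfb3, Car9, Kdm3a, Mxi1, Aldoa, Epas1, Arnt, the nitric oxide synthases and Vps25 were named outside this rule, after their values were seen. So were the cell type markers Pax2, Pax8, Krt7, Krt8, Krt18, Tfcp2l1, Aqp2, Aqp3, Aqp4, Scnn1b, Hsd11b2, Slc14a2, Elf5, Cd68, Csf1r, Flt1, Erg, Egfl7, Cdh5, Pecam1, Kdr, Tek, Tie1 and Sox17. The members and lists were chosen with earlier results of these data known. Alternatives were other scalings, filters, tools (DESeq2 1.42.0, limma 3.58.1), library number covariates and leaving out each library. Intervals cover the spread between libraries.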

Additional observations from a re-analysis of the deposited data

Results flagged for a closer look

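In 38 groups of 4 values, 4 had their highest or lowest value far from the rest, where about 1.9 arise by chance at 1 in 20. Edn1 was at 5.803 CPM in NaCl replicate 5 and elsewhere in that group at 7.142 to 7.408 CPM. Adm2 was at 9.746 CPM in control replicate 1, where the other controls were at 8.941 to 9.057 CPM. Total counts were 47565623 in control replicate 1 against 41768063 to 42731803 in the other controls, and 35286796 in NaCl replicate 5 against 41366039 to 42394487 in its group. The Adm values did not stand apart by this measure. The slope along the library number was steeper in NaCl than in control, by the edgeR test of the difference itself, for 4 hypoxia-inducible genes. The difference was 0.1731 log2 units per library number for Hk2, 0.1486 for P4ha1, 0.1366 for Bhlhe40 and 0.1852 for Higd1a, and the count fell to 0 when NaCl replicate 5 or either of control replicates 1 and 4 was left out.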

How the results depend on the processing

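No paired analysis was run. The control libraries are numbered 1 to 4 and the NaCl libraries 5 to 8. No label says whether a control and a NaCl library belong together. Values are edgeR log2 changes unless a tool is named; where a call moved, the cause was not tested. With a linear drift over the 8 numbers, Adm was at -1.84 (adjusted p = 0.00234), Ednra at 0.26 (0.825), Pcsk7 at -0.020 and Rgs2 at -0.12. Ero1a was then at -1.70, Ndrg1 at -1.73, Bnip3 at -1.76, Fbxw9 at -0.58, Tbl1xr1 at -0.51 and Tsc22d1 at -0.56. These passed in that fit and not in the main fit, but they had been picked by profile, so this is a description only. Leaving out each library in turn, the change between groups ranged from -0.10 to 0.051 for Edn1, from -0.17 to -0.11 for Ece1, from -0.50 to -0.07 for Adm, from -0.56 to -0.08 for Ednra, from 0.42 to 0.85 for Calcrl, from -0.12 to 0.020 for Fbxw9, from -0.13 to 0.0016 for Tbl1xr1 and from -0.11 to 0.026 for Tsc22d1. The slope ranged from 0.11 to 0.15 for Edn1, from 0.015 to 0.048 for Ece1, from 0.30 to 0.48 for Adm, from -0.29 to -0.10 for Ednra and from -0.17 to 0.15 for Calcrl, whose sign turned when NaCl replicate 7 or either of control replicates 1 and 3 was left out. The Edn1 slope was 0.13 and passed in DESeq2 (0.0431). Genes called along the number were 1847 in all, 949 to 1870 without 1 library (949 without control replicate 1, 1088 without control replicate 4 and 1042 without NaCl replicate 8) and 735 without control replicate 1 and NaCl replicate 5, where the Ece1 slope was 0.069 (0.0316) and the Calcrl slope 0.27. With library totals alone, 731 genes had a positive and 1327 a negative called slope, against 975 and 872 with TMM factors. With totals that leave out mitochondrially encoded and the 10 most abundant genes it was 776 and 1189. Genes whose slope differed between groups were 13 (1088 at an unadjusted p under 0.05), 29 in DESeq2, and 0 to 110 without 1 library, with 0 without control replicate 1 (830 unadjusted) or NaCl replicate 5 (717 unadjusted), 3 without control replicate 4, 24 without NaCl replicate 6 and 110 without NaCl replicate 8. Hypoxia-inducible genes with a called slope numbered 5 to 17 without 1 library, and those with a called steeper slope in NaCl 0 to 13. Ednra and Calcrl had 14 to 84 counts per library, so counting error was largest there among the members, and DESeq2 gave no adjusted p for their slopes.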
